A study of Mus musculus with 9 samples.

Results

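Steroid dehydrogenases and reductases of the liver were followed as a set of 10 mouse genes: Hsd3b2, Hsd3b3, Hsd3b5, Cyp17a1, Hsd11b1, Hsd17b2, Hsd17b6, Hsd17b10, Hsd17b11 and Srd5a1. Each gene was read from the array probe sets annotated to its symbol alone, and a gene with several was represented by the probe set with the highest mean signal over the 9 arrays. By this rule 9 of the 10 genes had a probe set of their own, and all 9 passed the filter on dim signals. Srd5a1, a 5-alpha-reductase, had 0 such probe sets and was not analysed here. In the whole series 18193 genes had a probe set of their own and 12466 were tested.

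The livers were those of 9 females of Crlj:CD1(ICR), an outbred mouse stock, bought at 9 weeks of age and held in quarantine for 1 week before feeding. For 2 weeks, 3 mice received a diet with 5000 ppm permethrin, 3 mice a diet with 5000 ppm clofibrate and 3 mice the diet without either chemical. Permethrin is a pyrethroid insecticide, and clofibrate is a lipid-lowering fibrate that activates the nuclear receptor PPAR alpha. RNA of each liver was read on 1 Affymetrix array, and values are linear MAS5 signals in intensity units.

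Steroid dehydrogenases move hydrogen between the hydroxyl and the keto form of a steroid, and so switch a hormone between a form that binds its receptor and one that does not. The liver clears most circulating steroids and uses these enzymes both to inactivate androgens and estrogens and, through Hsd11b1, to regenerate active glucocorticoid. Members of the same enzyme family also act on lipids other than steroids, in peroxisomes, mitochondria and lipid droplets. In mouse liver several of the genes differ between the sexes, with Hsd3b5 known for high levels in males and Cyp17a1 for higher levels in females.

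The windows of 250 bases before the transcription start are shown for the 3 Hsd3b genes, which are neighbours on chromosome 3, and for Hsd11b1 and Hsd17b11, which moved in opposite directions. Sequences are from RefSeq, build GRCm38.p6, on the minus strand, 5′ to 3′. Hsd3b5 lies at chr3:98645535-98645784, Hsd3b3 at chr3:98763129-98763378, Hsd3b2 at chr3:98724544-98724793, Hsd11b1 at chr1:193242361-193242610 and Hsd17b11 at chr5:104021797-104022046. Capitals mark the 1 run of at least 12 identical bases that Hsd3b5 and Hsd3b3 share, which is 24 bases long.
Hsd3b5: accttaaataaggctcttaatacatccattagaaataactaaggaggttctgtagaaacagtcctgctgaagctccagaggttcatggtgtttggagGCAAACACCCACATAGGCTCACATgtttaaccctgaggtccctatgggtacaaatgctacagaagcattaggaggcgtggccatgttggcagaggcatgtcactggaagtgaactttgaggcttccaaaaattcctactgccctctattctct
Hsd3b3: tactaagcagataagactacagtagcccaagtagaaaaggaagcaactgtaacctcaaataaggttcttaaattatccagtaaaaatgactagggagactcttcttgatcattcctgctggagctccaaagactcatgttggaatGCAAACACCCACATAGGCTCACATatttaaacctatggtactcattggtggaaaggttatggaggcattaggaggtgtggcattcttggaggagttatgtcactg
Hsd3b2: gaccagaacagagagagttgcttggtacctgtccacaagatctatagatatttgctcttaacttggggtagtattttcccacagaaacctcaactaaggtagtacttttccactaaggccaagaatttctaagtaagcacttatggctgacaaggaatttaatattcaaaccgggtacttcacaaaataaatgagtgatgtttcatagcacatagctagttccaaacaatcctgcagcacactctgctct
Hsd11b1: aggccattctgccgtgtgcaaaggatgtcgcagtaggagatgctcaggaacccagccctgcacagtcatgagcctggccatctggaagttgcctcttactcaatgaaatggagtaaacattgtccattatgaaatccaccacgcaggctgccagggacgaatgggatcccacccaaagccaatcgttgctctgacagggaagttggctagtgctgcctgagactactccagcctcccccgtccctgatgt
Hsd17b11: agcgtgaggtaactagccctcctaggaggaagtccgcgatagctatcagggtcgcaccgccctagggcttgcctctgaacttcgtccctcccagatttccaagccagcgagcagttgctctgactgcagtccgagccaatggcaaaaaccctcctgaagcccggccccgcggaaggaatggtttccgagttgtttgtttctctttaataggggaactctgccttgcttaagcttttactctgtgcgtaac

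The shared run ends 130 bases before the start of Hsd3b5. Hsd3b2 had no run of 12 or more in common with either neighbour, and its longest was 8 bases with each. Aligned end to end, Hsd3b5 and Hsd3b3 were 50.8% identical, Hsd3b5 and Hsd3b2 53.6%, and Hsd3b3 and Hsd3b2 51.2%. The hexamer AGGTCA, the half-site of many nuclear receptors, was searched on both strands and occurred in 0 of these windows. Of 32851 mouse promoter windows of the same length, 14% held it. A direct repeat of this hexamer with 1 base between the copies, the textbook form of a PPAR element, occurred in 11 of the 32851 windows, or 0.0335%, and in 0 of those shown. At these shares, 0 matches in so few windows says little about these genes. A gene can also carry response elements far outside such a window. The table used here held windows for Hsd17b6, Hsd17b10 and Srd5a1 as well, and these also had 0 matches to either motif.

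**Figure D1:**
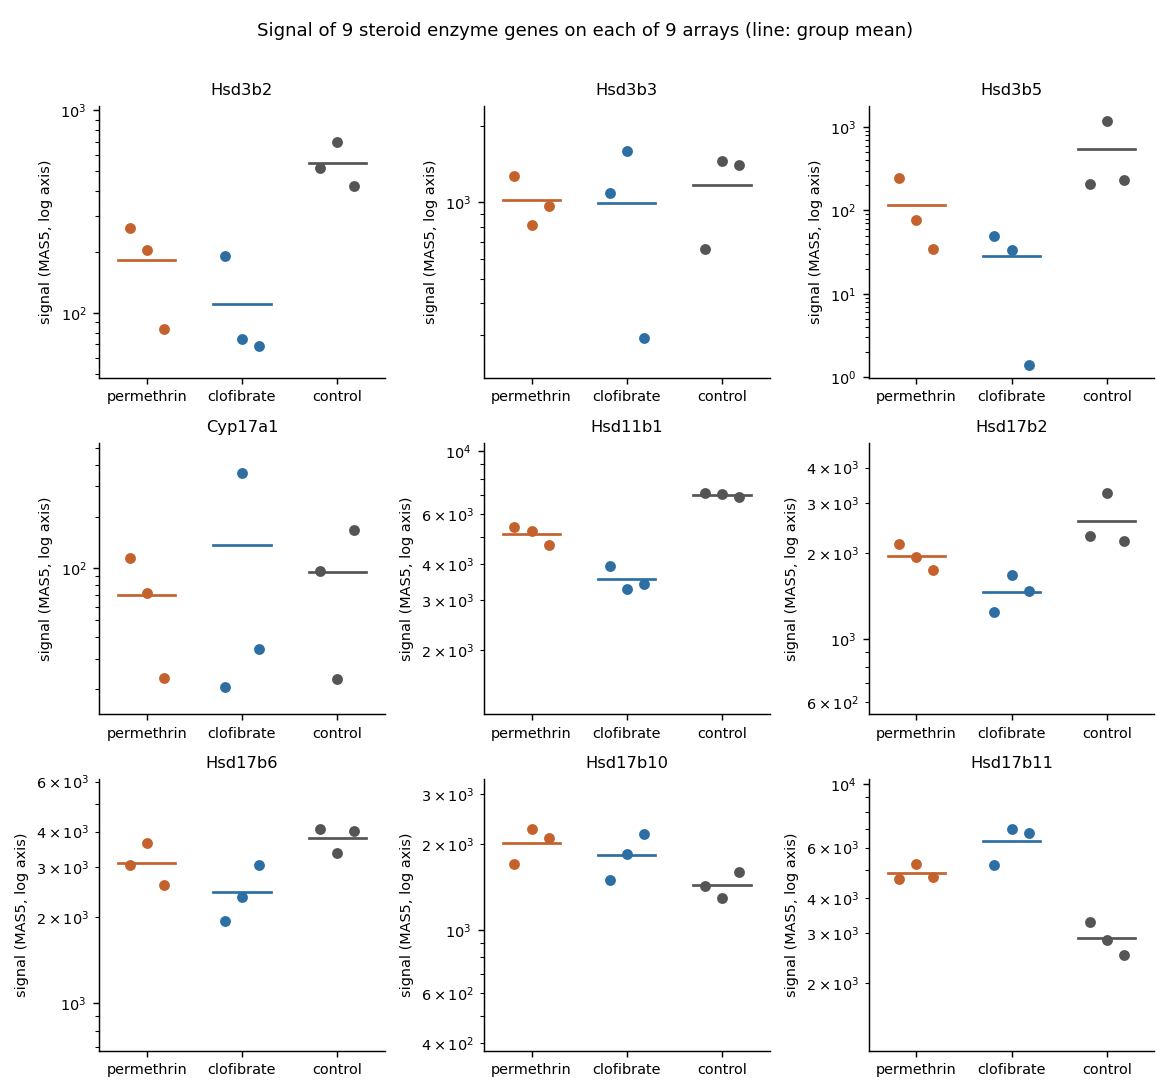
MAS5 signal of the 9 measured genes in each of the 9 livers, on a log axis in intensity units, with 1 panel per gene and groups from left to right permethrin, clofibrate and control. Points are mice and lines are group means. Hsd11b1 is tightly grouped and highest in control livers, Hsd17b11 is lowest there, and Cyp17a1 and Hsd3b5 spread widely within every group.

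On the brightest probe set of each gene, the largest log2 changes against control were those of Hsd3b2 and Hsd3b5, of the 3-beta-hydroxysteroid dehydrogenase family. Its classical members convert pregnenolone-type steroids to their keto forms. Signals of Hsd3b2 (Entrez gene 15493) were 262, 204 and 83.6 in permethrin livers, 190.0, 74.0 and 68.5 in clofibrate livers, and 518, 700 and 425 in control livers. Every treated liver lay below every control liver, and the 2 treated groups overlapped. With clofibrate Hsd3b2 fell 5.27-fold, a log2 change of -2.40 ± 0.43 (SE, n = 3 mice a group, limma adjusted p = 0.00806). With permethrin the log2 change was -1.68 ± 0.43, or 3.20-fold lower, and missed the threshold (limma adjusted p = 0.0900, 95% interval -2.63 to -0.73). Without clofibrate mouse 1, whose 190.0 was the highest of its group, the shared estimate of the spread gave an adjusted p of 0.0427 in limma for the same permethrin change.

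Hsd3b5, in mice a 3-ketosteroid reductase that uses NADPH, was the most variable gene with a change past the threshold. Its signals (Entrez gene 15496) were 242, 76.2 and 34.0 in permethrin livers, 49.8, 33.9 and 1.41 in clofibrate livers, and 206, 1196 and 230 in control livers. All clofibrate livers lay below all control livers, whereas permethrin mouse 1 lay above 2 of the 3 controls. One control mouse stood 5.82-fold above the lowest control, and the clofibrate mouse at 1.41 was below the filter level of 15.6, so its level there is not well measured. With clofibrate Hsd3b5 fell by 4.20 on the log2 scale, or 18.4-fold (95% interval -6.27 to -2.12, limma adjusted p = 0.0250). The limma call ended without clofibrate mouse 3 (log2 change -3.12, adjusted p = 0.0768), without control mouse 2 (-3.38, adjusted p = 0.0911) and without control mouse 3 (-4.57, adjusted p = 0.0510), and an offset of 16 in place of 3.35 gave -3.39. It also ended under the robust variance model (adjusted p = 0.121) and without the intensity trend (adjusted p = 0.0866), and was kept in 17 of 22 other settings of limma. With permethrin the log2 change was -2.11 (95% interval -4.18 to -0.03, limma adjusted p = 0.357).

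Hsd3b3 was not called in any comparison, and whether its response differed from that of its neighbours was not tested. Its signals (Entrez gene 15494) were 1270, 815 and 966 in permethrin livers, 1086, 1594 and 292 in clofibrate livers, and 656, 1458 and 1402 in control livers. The 3 groups overlapped, with the lowest value in clofibrate mouse 3, the mouse that also had the lowest Hsd3b5 and Hsd3b2. The log2 change was -0.14 with permethrin (95% interval -1.27 to 0.99, limma adjusted p = 0.940) and -0.47 with clofibrate (-1.59 to 0.66, limma adjusted p = 0.692), and both intervals hold a fall of 2-fold. A dimmer probe set of Hsd3b3 read 54.8 to 64.4 in permethrin livers, 67.1 to 112 in clofibrate livers and 41.2 to 86.1 in control livers. Both treated groups overlapped the controls there, while every permethrin liver lay below every clofibrate liver (log2 difference -0.43, limma adjusted p = 0.577). A further probe set annotated to Hsd3b6, Hsd3b3 and Hsd3b2 together had log2 changes of -0.29 with permethrin and -0.61 with clofibrate, neither past the threshold (limma adjusted p = 0.821 and 0.509). The genes of this family are close in sequence, so signal from a relative can enter, and the probe set used for Hsd3b3 is of a type marked by the maker as open to such cross-reading.

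Cyp17a1 encodes the 17-alpha-hydroxylase that opens the route to androgens in the gonads and, in rodents, is also expressed in liver. Its signals (Entrez gene 13074) were 116, 72.2 and 23.1 in permethrin livers, 20.4, 359 and 34.0 in clofibrate livers, and 96.3, 22.9 and 166 in control livers. All 3 groups overlapped, and clofibrate mouse 2 stood above every other mouse. The highest mouse exceeded the lowest 5.01-fold in the permethrin group, 17.6-fold in the clofibrate group and 7.25-fold in the control group. The log2 change was -0.30 with permethrin (95% interval -2.41 to 1.80, limma adjusted p = 0.930) and -0.16 with clofibrate (-2.26 to 1.95, limma adjusted p = 0.954).

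Hsd11b1 turns inactive 11-dehydrocorticosterone back into corticosterone, and had the smallest standard error of the 9 genes. Its signals (Entrez gene 15483) were 5408, 5240.0 and 4666 in permethrin livers, 3955, 3283 and 3404 in clofibrate livers, and 7135, 7036 and 6891 in control livers. No group overlapped another: clofibrate livers were lowest, control livers highest and permethrin livers between them. Means were 5105 ± 389 with permethrin, 3547 ± 358 with clofibrate and 7021 ± 122 in controls (SD, n = 3 each). With clofibrate it fell 1.98-fold (log2 change -0.99 ± 0.10, limma adjusted p = 0.000187). With permethrin it fell 1.38-fold (-0.46 ± 0.10, limma adjusted p = 0.0374), and the direct comparison put permethrin livers 1.44-fold above clofibrate livers (0.53 ± 0.10, limma adjusted p = 0.0354).

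The clofibrate fall of Hsd11b1 stayed past the threshold when any 1 array was left out, and a required change of 2-fold was the 1 of 22 other settings that ended it. The permethrin fall is a weaker call, kept in 7 of 22 other settings. Leaving out any 1 permethrin or control mouse, or clofibrate mouse 3, gave limma adjusted p-values of 0.0619 to 0.157, with log2 changes of -0.51 to -0.40. Likewise, the higher signal with permethrin than with clofibrate was kept in 5 of 22 settings, with limma adjusted p-values of 0.0509 to 0.166 on leaving out any 1 mouse other than clofibrate mouse 1. The log2 change was below 0 against controls, and above 0 for permethrin against clofibrate, in all 22 settings.

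Hsd11b1 works inside the endoplasmic reticulum on NADPH that H6pd regenerates from glucose 6-phosphate, which Slc37a4 carries in. Slc37a4 fell in both comparisons, to 840 ± 71.8 with permethrin and 599 ± 44.7 with clofibrate, against 1470 ± 280 in controls (SD, n = 3 each; limma adjusted p = 0.0169 and 0.000413). H6pd read 1613 ± 277 with permethrin, 1562 ± 313 with clofibrate and 1705 ± 326 in controls, and its log2 changes of -0.08 and -0.13 missed the threshold (limma adjusted p = 0.902 and 0.769). The cofactor list had 8 of 10 genes tested: 0 rose and 1 fell with permethrin, while 1 rose and 2 fell with clofibrate. The shares over all genes were 1.28% higher and 0.85% lower with permethrin, and 3.22% higher and 3.8% lower with clofibrate. Cyb5a, an electron donor to microsomal enzymes, fell to 6741 ± 137 with clofibrate, against 8543 ± 313 in controls (SD, n = 3 each, limma adjusted p = 0.0282). Pgrmc2, a heme-binding membrane protein, rose to 907 ± 64.8 with clofibrate, against 571 ± 57.1 in controls (SD, n = 3 each, limma adjusted p = 0.00918). Of 16 tested glucocorticoid-responsive genes, 0 passed limma in either comparison with controls. Over all genes 2.13% passed with permethrin and 7.03% with clofibrate, so 0 of 16 is near those shares. The median log2 changes of the 16 were -0.39 for permethrin and -0.20 for clofibrate, beside -0.04 over all genes. In each comparison 12 of the 16 were below 0, a count without a share over all genes. Their summed signals overlapped, at 20158 to 22938.5 with permethrin, 21914 to 30844 with clofibrate and 21080 to 37635 in controls. Control mouse 3, which enters both comparisons, was highest for Tat, Pck1, Per1, Tsc22d3, Sgk1, Dusp1, Igfbp1 and Errfi1, and not for the rest.

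Among the 17-beta-hydroxysteroid dehydrogenases, Hsd17b2, which oxidises estradiol and testosterone to weaker ketosteroids (Entrez gene 15486), read 2162, 1942 and 1753 in permethrin livers, 1243, 1684 and 1476 in clofibrate livers, and 2307, 3267 and 2209 in control livers. Every clofibrate liver lay below every permethrin liver, and every permethrin liver below every control liver. With clofibrate it fell 1.75-fold (log2 change -0.81 ± 0.16, limma adjusted p = 0.0142). This call ended in limma without clofibrate mouse 3 (adjusted p = 0.0518), under scaling to the hybridization controls (log2 change -0.48, adjusted p = 0.183), with arrays centred on their median (adjusted p = 0.0883), without the intensity trend (adjusted p = 0.0708) and with a 2-fold limit. It was kept in 17 of 22 other settings. With permethrin the log2 change was -0.39 (95% interval -0.75 to -0.04, limma adjusted p = 0.309).

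Hsd17b6, an oxidase of androstanediol (Entrez gene 27400), read 3060.2, 3659 and 2607 in permethrin livers, 1942, 2366 and 3044 in clofibrate livers, and 4075, 3352 and 4006 in control livers. Clofibrate livers lay below all controls, whereas permethrin mouse 2 lay above the lowest control. With clofibrate it fell 1.57-fold (log2 change -0.66 ± 0.17, limma adjusted p = 0.0454), a call near the threshold that 7 of 23 other settings kept. Leaving out permethrin mouse 1, clofibrate mouse 1 or 2, or any 1 control mouse ended it, with limma adjusted p-values of 0.0621 to 0.155, and its second probe set, dim at 6.66 to 20.6, had a log2 change of -0.15. With permethrin the log2 change was -0.30 (95% interval -0.67 to 0.07, limma adjusted p = 0.475).

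Hsd17b10 is a mitochondrial enzyme of isoleucine breakdown and a subunit of mitochondrial RNase P. Its signals (Entrez gene 15108) were 1703, 2256 and 2106 in permethrin livers, 1494, 1843 and 2180.0 in clofibrate livers, and 1428, 1298 and 1597 in control livers. Permethrin livers lay above all controls, while clofibrate mouse 1 lay among them. The log2 change was 0.48 with permethrin (95% interval 0.15 to 0.82, limma adjusted p = 0.175) and 0.34 with clofibrate (0.00 to 0.67, limma adjusted p = 0.257). The second probe set gave 0.54 and 0.27, neither past the threshold (limma adjusted p = 0.167 and 0.428), and both its treated groups lay above all controls. That probe set is of the same type as the one used for Hsd3b3, marked as open to cross-reading.

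Hsd17b11, which oxidises androstanediol to androsterone and resides on lipid droplets, was the 1 gene of the set called higher than in controls. Its signals (Entrez gene 114664) were 4637, 5262 and 4742 in permethrin livers, 5229, 6956 and 6751 in clofibrate livers, and 3283, 2840.3 and 2508 in control livers. All treated livers lay above all controls, and the treated groups overlapped through clofibrate mouse 1 and permethrin mouse 2. Hsd17b11 rose 1.70-fold with permethrin (log2 change 0.77 ± 0.13, limma adjusted p = 0.0138) and 2.19-fold with clofibrate (1.13 ± 0.13, limma adjusted p = 0.000547). The difference between the 2 chemicals was -0.36 for permethrin against clofibrate (95% interval -0.65 to -0.08, limma adjusted p = 0.292). The clofibrate rise was past the threshold in all 23 other settings, and the permethrin rise in 17 of 23. The permethrin call ended in limma without permethrin mouse 2 or 3 or control mouse 2 or 3, at adjusted p-values of 0.0504 to 0.0656. It also ended without the intensity trend (limma adjusted p = 0.107) and with a 2-fold limit.

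A second, dimmer probe set of Hsd17b11 gave larger ratios. It read 758, 443 and 391 in permethrin livers, 1074, 1349 and 814 in clofibrate livers, and 181, 161 and 111 in control livers, and no group overlapped another. The rise was 3.38-fold with permethrin (log2 change 1.75 ± 0.27, limma adjusted p = 0.00774), and the log2 change was 2.81 ± 0.27 with clofibrate (limma adjusted p = 0.000163). The difference of permethrin against clofibrate on this probe set was -1.05 and missed the threshold (limma adjusted p = 0.127). A further probe set was too dim to be tested, at 3.64 to 15.1.

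**Figure D2:**
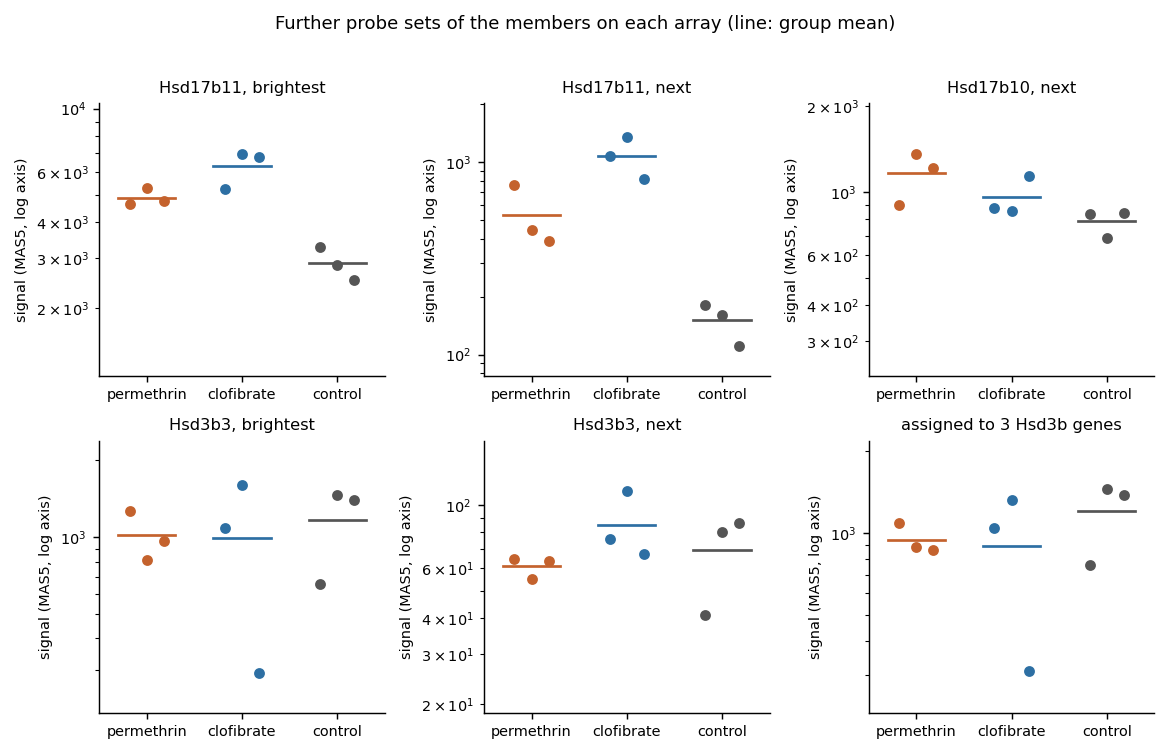
MAS5 signal per liver, on a log axis in intensity units, for further probe sets of the same genes: both tested probe sets of Hsd17b11, the second of Hsd17b10, both of Hsd3b3, and the probe set annotated to 3 Hsd3b genes. Points are mice and lines group means, with permethrin, clofibrate and control from left to right. Both Hsd17b11 probe sets are higher in every treated mouse than in every control, and on both Hsd3b3 probe sets the treated groups overlap the controls.

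Counted over the 9 genes tested, permethrin against control gave 2 calls, 1 higher and 1 lower, where 2.13% of the 12466 genes were called (1.28% higher and 0.85% lower). Of the 7 genes not called, 4 had an unadjusted limma p under 0.05, a count without a share over all genes to set beside it. The permethrin and control groups did not overlap for 5 genes, 2 higher and 3 lower, and for 22.7% of all genes (9.53% higher and 13.2% lower). The median log2 change of the 9 was -0.30, beside -0.04 over all genes. The genes of the set were chosen with earlier results of these data known. Their counts and medians beside all genes are therefore a description and no test of an excess, in this and the other comparisons.

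Clofibrate against control gave 6 calls among the 9 genes, 1 higher and 5 lower, where 7.03% of all genes were called (3.22% higher and 3.8% lower). Of the 3 not called, Hsd3b3, Hsd17b10 and Cyp17a1, 1 had an unadjusted limma p under 0.05, again without a share over all genes. The groups did not overlap for the 6 called genes, and for 27.2% of all genes (11.6% higher and 15.6% lower). The median log2 change was -0.66, beside -0.04 over all genes. Here too, the choice of the set with earlier results known means that these values do not test for an excess. Both comparisons use the same 3 control arrays, so a deviation in those mice enters both.

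In the direct comparison of permethrin with clofibrate, 1 of 9 genes was called, Hsd11b1, where 0.738% of all genes were called (0.473% higher and 0.265% lower). Hsd11b1 and Hsd17b2 were the 2 genes whose groups did not overlap, both higher with permethrin, against 18.1% of all genes (9.08% higher and 9.02% lower). For Hsd3b2 the log2 difference was 0.72 (95% interval -0.23 to 1.67, limma adjusted p = 0.555) and for Hsd3b5 2.09 (0.02 to 4.17, limma adjusted p = 0.409).

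**Figure D3:**
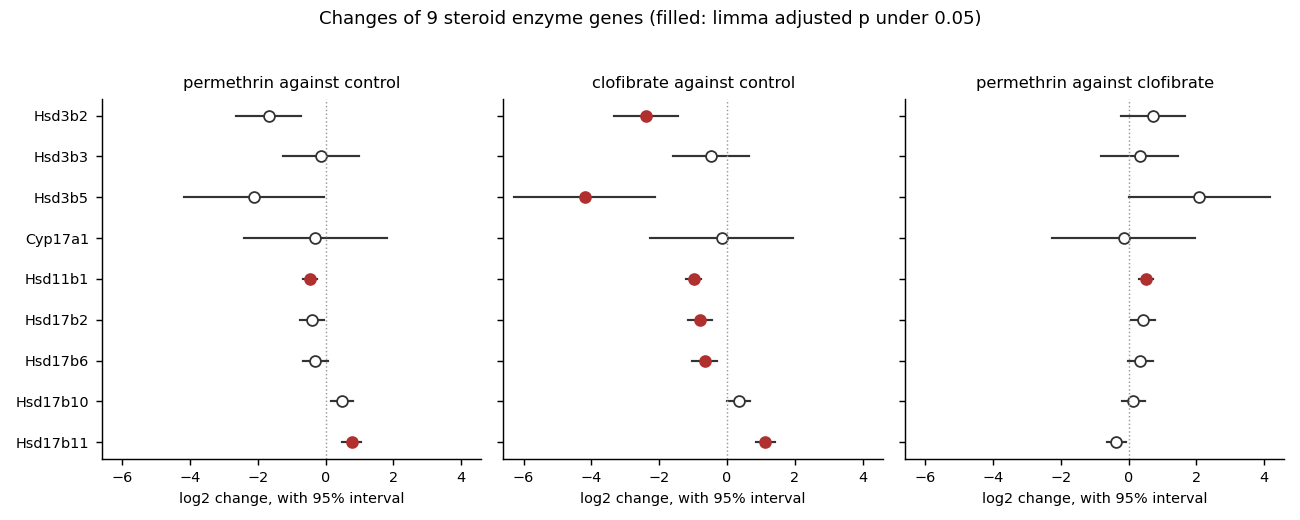
Log2 change with its 95% interval for the 9 genes in the 3 comparisons: permethrin over control, clofibrate over control, and permethrin over clofibrate. Filled symbols passed an adjusted p of 0.05 in limma. Filled symbols number 2, 6 and 1, and the intervals of Hsd3b5 and Cyp17a1 are the widest.

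Across the 9 livers the log2 signals of Hsd3b2 followed those of Hsd11b1 (Pearson r = 0.917) and Hsd3b5 (0.902), and Hsd11b1 ran opposite to Hsd17b11 (-0.934). Correlations of Cyp17a1 with the other 8 genes lay between -0.02 and 0.34. The values describe 9 arrays in 3 groups and largely carry the group differences given above. Of the other 12457 genes, the closest to Hsd11b1 were Cyp4v3 (r = 0.989), Akr1c6 (0.979) and Akr1d1 (0.977), and the closest to Hsd17b11 were Retsat, a retinol saturase (0.984), Ephx2, soluble epoxide hydrolase (0.983), and Rab30, a small GTPase (0.981). Retsat read 5225 ± 183 with permethrin and 6257 ± 765 with clofibrate, against 2399 ± 297 in controls (SD, n = 3 each). Closest to the remaining called genes were Slc39a2, Pom121 and Dkc1 for Hsd3b2 (0.961 to 0.962), Dcps, Cyp2c68 and Cyp4f14 for Hsd3b5 (0.955 to 0.961), Otc, Atp6v1g1 and Pbk for Hsd17b2 (0.939 to 0.954) and Wipf3, Ipmk and Etnppl for Hsd17b6 (0.950 to 0.968).

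The wider list of steroid enzymes held 36 genes, of which 30 had a probe set of their own and 23 were tested. With permethrin 2 rose and 0 fell, with a median log2 change of 0.35. Over all genes 1.28% rose and 0.85% fell. Hsd17b12, which acts in fatty acid elongation, was 2386 ± 57.6 with permethrin and 1383 ± 91.0 in controls, and Hsd17b4, the peroxisomal multifunctional enzyme, was 3627 ± 113 with permethrin and 2482 ± 171 in controls (SD, n = 3 each; limma adjusted p = 0.00168 and 0.0310).

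With clofibrate 3 of the 23 rose and 4 fell, with a median of 0.06. Over all genes 3.22% rose and 3.8% fell. Hsd17b12 rose to 2584 ± 181 with clofibrate and Hsd17b4 to 4104 ± 572 (SD, n = 3 each; limma adjusted p = 0.000299 and 0.00303). Hsd17b7, an enzyme of cholesterol synthesis, rose to 917 ± 319 with clofibrate, against 371 ± 89.7 in controls (SD, n = 3 each, limma adjusted p = 0.0170). Its probe set is of the same type as that of Hsd3b3, marked as open to cross-reading. Akr1d1, the 5-beta-reductase of steroids and bile acid precursors, fell to 1048 ± 80.9 with clofibrate, against 1573 ± 53.9 in controls (SD, n = 3 each, limma adjusted p = 0.00729). Cyp39a1, an oxysterol hydroxylase, fell to 34.4 ± 16.4 with clofibrate, against 247 ± 125 in controls (SD, n = 3 each, limma adjusted p = 0.00406). Akr1c6, an aldo-keto reductase of a family with close relatives, fell to 4666 ± 71.1 with clofibrate, against 7096 ± 156 in controls (SD, n = 3 each, limma adjusted p = 0.00197). Cyp7b1, an oxysterol hydroxylase, was the 1 gene of the list called between the chemicals, at 1486 ± 389 with permethrin and 696 ± 51.3 with clofibrate (SD, n = 3 each; limma adjusted p = 0.0319). Over all genes 0.738% were called between the chemicals.

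Of 4 steroid receptors tested, Esr1, the estrogen receptor alpha, was the 1 called, where 7.03% of all genes were called with clofibrate. It fell to 241 ± 54.6 with clofibrate, against 601 ± 74.9 in controls (SD, n = 3 each; log2 change -1.32, limma adjusted p = 0.00212), and with permethrin it read 423 ± 93.6 (-0.52, limma adjusted p = 0.247). The glucocorticoid receptor Nr3c1 had log2 changes of -0.29 with permethrin and -0.36 with clofibrate, neither past the threshold (limma adjusted p = 0.392 and 0.180).

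**Figure D4:**
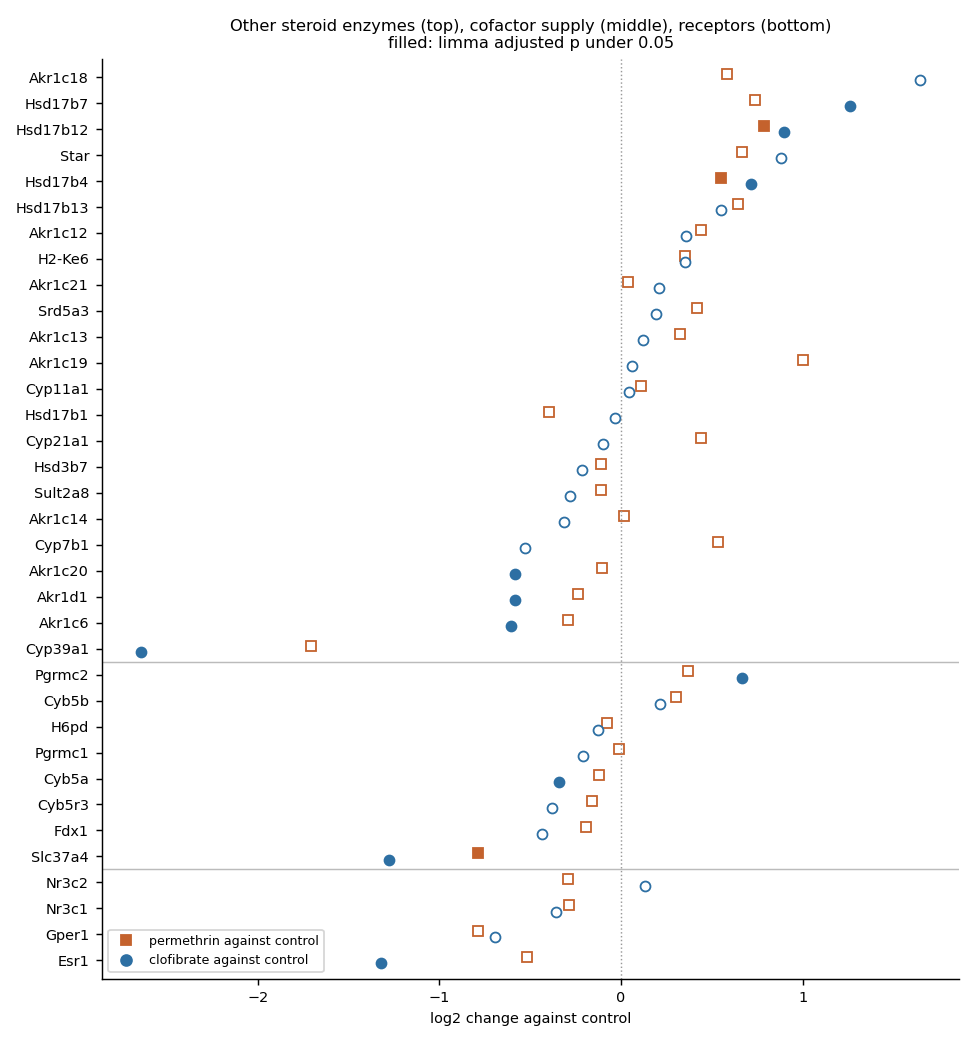
Log2 change against control of the tested genes in 3 further lists: other steroid enzymes at the top, cofactor and electron supply in the middle and steroid receptors at the bottom. Squares are permethrin and circles clofibrate, and filled symbols passed an adjusted p of 0.05 in limma. Hsd17b12, Hsd17b4 and Slc37a4 are filled for both chemicals.

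Of 15 tested male-biased genes, which include Hsd3b5, 2 rose and 0 fell with permethrin (median log2 change -0.08), and 2 rose and 4 fell with clofibrate (-0.53). Cyp4a12a and Elovl3 rose in both, while Hsd3b5, C8a, Egfr and Cyp2f2 fell with clofibrate. Of 13 tested female-biased genes, which include Cyp17a1, 1 rose and 1 fell with permethrin (-0.22), and 1 rose and 2 fell with clofibrate (0.04). For both lists, the shares over all genes were 1.28% higher and 0.85% lower with permethrin, and 3.22% higher and 3.8% lower with clofibrate. Acot3, an acyl-CoA thioesterase, rose and Slc22a26, an organic anion carrier, fell in both, and Atp6v0d2 fell with clofibrate.

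General liver markers moved beside the falls. Of 11 hepatocyte markers, 0 passed with permethrin (median log2 change -0.16), and 5 fell with clofibrate, namely Alb, Apoa1, Fgb, Ahsg and Cps1 (median -0.41). Over all genes 2.13% passed with permethrin and 3.8% fell with clofibrate. The summed signal of the hepatocyte markers was 80388 to 87021 in permethrin livers and 63908 to 77390 in clofibrate livers, against 89727 to 99324 in control livers. The 95% intervals of the clofibrate falls were -1.20 to -0.78 for Hsd11b1, -1.16 to -0.45 for Hsd17b2 and -1.02 to -0.29 for Hsd17b6. Under scaling to the hybridization controls these falls were -0.66, -0.48 and -0.32 (limma adjusted p = 0.0266, 0.183 and 0.250). The brightest 5% of genes, 624 in number, had median log2 changes of -0.09 with permethrin and -0.20 with clofibrate. The part of the shifts of hepatocyte markers and bright genes in the results was not tested. In whole liver, fewer cells of a type and less RNA per cell cannot be told apart.

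Markers of steroid-producing tissues were checked as well. Of 10 adrenal and gonad markers with a probe set, 5 were tested and 4 were above the filter level on no array. The defining genes Cyp11a1, Cyp11b1, Cyp21a1 and Star reached at most 21.2, 15.0, 39.2 and 55.5 on any array. The summed signal of the list was 838 to 922 in permethrin livers and 753 to 1083 in clofibrate livers, against 575 to 682 in control livers. Most of that sum came from 1 gene, Mrap, a partner protein of melanocortin receptors. Mrap read 689 to 824 in permethrin livers, 629 to 996 in clofibrate livers and 475 to 544 in control livers. It rose to 828 ± 186 with clofibrate, against 502 ± 36.8 in controls (SD, n = 3 each, limma adjusted p = 0.0263). Mc2r and Nr5a1, at most 10.5 and 26.1 on any array, were lower in every clofibrate liver than in every control liver. The same held for 15.6% of all genes. Mc2r was below the filter level on every array, and the highest Nr5a1 was that of permethrin mouse 2, so neither level is well measured. Kupffer cell, stellate cell and lymphocyte lists, with 12, 11 and 4 genes tested, had 0 calls with either chemical. Fcgr2b of the endothelial list fell and Krt23 of the cholangiocyte list rose with clofibrate. Cela1, a pancreatic-type elastase, fell with both chemicals. Some list sums lay apart from those of controls. The stellate sum was 3381 to 3651 with permethrin, against 3830 to 5323 in controls. With clofibrate the endothelial sum was 2049 to 2214, against 2736 to 3100, and the lymphocyte sum 299 to 453, against 184 to 284. The cholangiocyte sum with clofibrate and the pancreatic sum with both chemicals also lay apart.

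Array-wide values bear on all of this. Each array had been scaled to the same trimmed mean, 100.001, and median signals lay between 13.4 and 17.9. The brightest signal per array reached 12792 to 13409 in permethrin livers and 10714 to 12058 in clofibrate livers, against 14387 to 14899 in control livers. The 18S ribosomal RNA control signal also differed between the groups without overlap, at 38.0 to 88.8 in permethrin livers and 58.3 to 78.1 in clofibrate livers, against 129 to 169 in control livers. It therefore moved with every change against control given here, and its part in them was not tested. The median gene had a coefficient of variation of 15.2% with permethrin, 14.7% with clofibrate and 13.6% in controls. With 1 array per mouse and 3 mice a group, the number of arrays sets the precision.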

How the data were processed

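RNA from 9 livers was hybridized to Affymetrix mouse arrays, 1 per mouse. The authors deposited linear signals of intensity for 45101 probe sets, computed with MAS5 per the submitters' processing notes; version and settings are not stated in the sources used. The values were used on the scale given, after adding an offset of 3.35, the 20th percentile, and taking log2. A probe set was tested if at least 3 arrays exceeded 15.6, the overall median signal, which 24546 did. Symbols came from the platform annotation: 34945 probe sets had 1 symbol, 932 several and 9160 none. Genes were read from probe sets with 1 symbol, the brightest for each gene. The treated samples' description speaks of rats, while organism, source and strain give mouse, and they were treated as mouse.

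limma 3.58.1 in R 4.3.3 was run on all 9 arrays with a mean per group and an intensity trend, two-sided, with Benjamini-Hochberg adjustment over the 24546 probe sets within each comparison and a threshold of 0.05. Fold changes are on the log2(signal + offset) scale, which understates those of dim genes. Except to rank probe sets and genes by brightness and to sum lists, MAS5 signals of different probe sets are not compared with each other. In the sums, bright probe sets weigh most. The labels call the mice of a group biological replicates and name no batch.

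All members are named. From each gene list, called genes are named, at most 6 per list and comparison by size of change. For each member called against control, the 3 genes with the highest correlation are named. The members and lists were chosen with earlier results of these data known. Alternatives covered offset, normalization, filter, variance model, arrays in the fit, a 2-fold limit, the next brightest probe set, a replicate block and each array left out, 23 settings in all. The test procedure was checked on simulated data. Promoter windows were read from RefSeq tables and aligned with Biopython 1.88.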

Additional observations from a re-analysis of the deposited data

How the results depend on the processing

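With permethrin against control, 2 genes of the set were called. The count was 1 with quantile normalization, arrays centred on their median, scaling to the hybridization controls, cyclic loess or no filter, 0 without the intensity trend or with a 2-fold limit, and 0 to 3 with 1 array left out. With clofibrate against control, 6 were called, 3 without the intensity trend or with a 2-fold limit and 4 to 6 with 1 array left out. For permethrin against clofibrate, 1 was called, 0 to 1 with 1 array left out, and 0 under the 7 settings first named, in a fit of the 2 groups alone and with a replicate block. That block left 2 and 5 calls against control: Hsd11b1 missed the threshold with permethrin (limma adjusted p = 0.0521) and Hsd17b6 with clofibrate (0.0786), while Hsd3b2 passed with permethrin (0.0327). Deviations of same-numbered mice correlated between -0.109 and 0.113 over 9 pairs and others between -0.0903 and 0.167 over 18, so no pairing was used.

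The sign of a log2 change turned only for genes that were not called. With permethrin against control, Hsd3b3 had 0.0064 under scaling to the hybridization controls and -0.51 to 0.060 with 1 array left out, and Cyp17a1 had -1.07 to 0.31. With clofibrate against control, Hsd3b3 had 0.31 on its next probe set and -0.96 to 0.25 with 1 array left out, and Cyp17a1 had 0.18 under scaling to the hybridization controls and -1.36 to 0.61. For permethrin against clofibrate, the next probe set gave -0.43 for Hsd3b3 and -0.43 for Hsd17b6, scaling to the hybridization controls gave -0.043 for Hsd17b10, and leaving out 1 array gave -0.39 to 0.82 for Hsd3b3 and -0.91 to 1.06 for Cyp17a1. The cause was not tested.

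Over all genes, the 266 calls for permethrin became 143 with arrays centred on their median, 165 under scaling to the hybridization controls, 80 without the trend and 103 with a 2-fold limit. For clofibrate 876 became 487, 397 and 293 with centring, no trend and the 2-fold limit, and for permethrin against clofibrate 92 became 33, 43, 10, 39 under the same 4 settings and 48 in a fit of 2 groups. Leaving out 1 array gave 108 to 318, 430 to 889 and 17 to 119 calls in the 3 comparisons. Scaling to the hybridization controls moved the median gene by 0.15, 0.33 and -0.19 in the 3 comparisons, and centring moved it by 0.11 for permethrin against control. The share of calls that were higher was 60.2%, 45.9% and 64.1%, became 81.8%, 62.6% and 78.8% with centring and 86.7%, 92.1% and 20.9% under scaling to the controls. Hsd17b10 passed with clofibrate under that scaling (log2 change 0.67, limma adjusted p = 0.0156). Signals near the filter level, as for Hsd3b5 in clofibrate livers, limit what a fold change means.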

Other observations

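Hsd17b13, a lipid droplet protein related to Hsd17b11 and chosen here after its values were seen, varied widely between mice on every diet. Its brighter probe set read 2093, 136 and 3588 in permethrin livers, 109, 2512 and 3036 in clofibrate livers, and 75.8, 1362 and 2535 in control livers. Each group held 1 mouse far below the others, and the groups overlapped. A second probe set of the gene ran the other way, at 150.4, 283 and 29.0 in permethrin livers, 279.8, 112 and 25.2 in clofibrate livers, and 308, 102 and 19.1 in control livers. In all 3 groups the mouse lowest on the first probe set was the highest on the second.

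Clofibrate mouse 2, which held the highest Cyp17a1 signal at 359, also held the highest signals of Abcd2 and Cyp3a16, female-biased genes chosen here after their values were seen. Abcd2, a peroxisomal transporter, was 454 in that mouse and 67.8 to 267 in the other 8. Cyp3a16 was 37.7 there and 0.636 to 5.61 in the others. It exceeded the filter level of 15.6 on that array alone and so did not pass the filter. Of the same list, Cyp2b9, Cux2, Acot3 and Hao2 were also highest in that mouse. Cyp2b13, Cyp3a44, Sult3a1, Fmo2, Atp6v0d2, Slc22a26 and Ntrk2 were not. Of the male-biased list, C8a, a complement component, was lowest in the same mouse, at 1547, and so were Cyp2d9, Slco1a1, Cyp2u1 and Ugt2b38. Hsd3b5, Cyp4a12a, Cyp7b1, Elovl3, C6, Susd4, Moxd1, Nudt7, Egfr, Gstp1 and Cyp2f2 were not. One mouse has no replicate, and no test was made.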
